A study of Caenorhabditis elegans with 2 samples.

Results

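The cytosolic ribosomal protein genes of Caenorhabditis elegans were examined for binding of LSY-2, a transcription factor with C2H2 zinc fingers. The genes were all nuclear protein-coding genes whose symbol starts with rpl- (large subunit) or rps- (small subunit) in the Ensembl annotation of WBcel235, the assembly that the files call ce11. This gave 78 genes of 19973, of which 47 were large subunit and 31 small subunit genes. LSY-2 fused to eGFP had been mapped by ChIP-seq, the sequencing of DNA that is immunoprecipitated with a chromatin protein, in whole L2 larvae of both sexes. The larvae were of strain OP240, which carries unc-119(ed3) III and the transgene wgIs240. There was 1 group of 2 biological replicates and no second condition, so the comparisons below are between genes within these libraries. The sources used here do not give the promoter that drives the transgene, and signal from whole larvae averages over every tissue. The control library and other factors in the same strain background were not analysed here.

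Each ribosome is built from a large and a small subunit, and each subunit is an assembly of ribosomal RNA and ribosomal proteins that are needed in near equal amounts. The small subunit decodes the messenger RNA, and the large subunit joins amino acids and holds the exit tunnel for the new chain. Ribosomal protein genes are among the most actively transcribed genes of growing animals. In C. elegans many of their messenger RNAs are trans-spliced to a short leader, so the annotated 5′ end can lie downstream of the site where transcription starts.

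Binding was read from the authors' regions, each with a summit (the base of highest enrichment) and a signal (the caller's enrichment value, not scaled between replicates). A gene was counted as having a summit when one lay in its promoter window, the stretch between 1000 bp before and 200 bp after the annotated 5′ end. The thresholded list held the 2182 regions that passed a limit on the irreproducible discovery rate, a measure of how well 2 replicates agree in rank. Each replicate alone had 30000 listed regions including background, and its 2182 regions of highest signal were used for comparison. Read counts are not in these files, so depth is unknown, and the 95% Wilson intervals of shares cover the number of genes only.

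The sequence under the summits is shown first because the binding pattern can be followed on it. Each sequence is 101 bp of WBcel235, from the RefSeq copy of the genome, centred on the thresholded summit and written 5′ to 3′ on the strand of the gene named. Capitals mark every copy, in either orientation, of 4 short motifs that were common at these summits. One motif is ACCGTA, which reads TACGGT on the other strand. Another is AACGAGTG, which then reads CACTCGTT. The third is GAGACC, which then reads GGTCTC, and the last is ATACTCAG, which then reads CTGAGTAT. The first set holds the 4 strongest summits at ribosomal protein genes, and each carries TACGGT on the gene's strand.
rpl-20 (chrIV:4750015-4750115, minus strand): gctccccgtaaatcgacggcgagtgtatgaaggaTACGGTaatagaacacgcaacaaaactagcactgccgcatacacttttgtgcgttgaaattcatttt
rpl-3 (chrIII:3867522-3867622, plus strand): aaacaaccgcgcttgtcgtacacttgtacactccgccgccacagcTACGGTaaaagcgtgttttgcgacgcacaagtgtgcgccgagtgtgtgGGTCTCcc
rps-1 (chrIII:4475603-4475703, plus strand): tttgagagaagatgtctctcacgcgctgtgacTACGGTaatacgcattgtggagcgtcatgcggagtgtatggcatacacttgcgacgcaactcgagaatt
rpl-15 (chrIV:654880-654980, minus strand): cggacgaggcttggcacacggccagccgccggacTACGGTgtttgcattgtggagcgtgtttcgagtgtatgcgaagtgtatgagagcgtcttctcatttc

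The second set shows a composite of AACGAGTG followed after 2 bases by ACCGTA. It lies on the gene's strand in 4 of these windows and on the opposite strand at rps-23.
rpl-11.2 (chrX:2242942-2243042, minus strand): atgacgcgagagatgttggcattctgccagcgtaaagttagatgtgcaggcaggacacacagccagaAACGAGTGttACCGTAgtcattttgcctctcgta
rps-23 (chrIV:12391278-12391378, minus strand): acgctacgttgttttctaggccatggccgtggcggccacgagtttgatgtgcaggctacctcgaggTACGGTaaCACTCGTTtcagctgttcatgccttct
rpl-29 (chrIV:13881914-13882014, plus strand): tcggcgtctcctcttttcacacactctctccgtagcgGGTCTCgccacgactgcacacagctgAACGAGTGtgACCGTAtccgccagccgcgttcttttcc
rpl-6 (chrIII:7208045-7208145, plus strand): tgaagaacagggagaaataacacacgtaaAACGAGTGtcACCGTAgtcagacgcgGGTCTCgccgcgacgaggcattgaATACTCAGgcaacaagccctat
rpl-21 (chrIII:8130511-8130611, minus strand): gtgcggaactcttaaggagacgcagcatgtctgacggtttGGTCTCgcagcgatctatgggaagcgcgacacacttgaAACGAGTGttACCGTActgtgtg

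The third set shows ATACTCAG, which was in 12 of the 64 windows and rare at other summits. The last of these windows is the summit that rpl-39 shares with its divergent neighbour rps-30.
rps-0 (chrIII:4754312-4754412, minus strand): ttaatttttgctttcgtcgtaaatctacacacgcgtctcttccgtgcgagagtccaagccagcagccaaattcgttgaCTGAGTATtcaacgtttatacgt
rpl-7A (chrIV:4390599-4390699, minus strand): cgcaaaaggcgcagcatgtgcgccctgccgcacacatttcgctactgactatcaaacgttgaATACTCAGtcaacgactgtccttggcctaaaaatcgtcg
rps-22 (chrIII:1950386-1950486, plus strand): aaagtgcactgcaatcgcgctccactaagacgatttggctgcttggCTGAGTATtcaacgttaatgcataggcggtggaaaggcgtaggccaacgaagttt
rpl-39 (chrV:7776286-7776386, minus strand): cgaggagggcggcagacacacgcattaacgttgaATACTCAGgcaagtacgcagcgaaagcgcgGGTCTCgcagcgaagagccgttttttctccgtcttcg

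The fourth set holds the weakest summit of each subunit, and GGTCTC is on the gene's strand in both.
rpl-26 (chrII:8602492-8602592, plus strand): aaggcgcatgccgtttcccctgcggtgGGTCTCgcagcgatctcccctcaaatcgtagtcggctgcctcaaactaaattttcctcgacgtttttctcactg
rps-8 (chrIV:7314107-7314207, minus strand): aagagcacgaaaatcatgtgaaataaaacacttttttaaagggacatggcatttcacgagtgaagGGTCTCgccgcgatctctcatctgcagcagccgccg

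For contrast, the last set shows 2 genes without a summit, rpl-11.1 and rpl-25.1, each a paralog of a gene that has one. These windows are centred 289 bp upstream of the annotated 5′ end, the median distance of the summits at ribosomal protein genes, and hold none of the 4 motifs. Of the 11 such windows at genes without a summit, those of rpl-37 and rps-16 hold GAGACC.
rpl-11.1 (chrV:3586303-3586403, minus strand): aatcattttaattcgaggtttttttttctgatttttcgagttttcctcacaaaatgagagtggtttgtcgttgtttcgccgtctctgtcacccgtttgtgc
rpl-25.1 (chrX:4714839-4714939, plus strand): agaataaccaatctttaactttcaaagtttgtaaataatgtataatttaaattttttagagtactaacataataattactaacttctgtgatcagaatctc

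Most ribosomal protein genes had an eGFP-LSY-2 summit. In the thresholded list 67 of the 78 did (85.9%, interval 76.5 to 91.9%), against 9.85% of all nuclear protein-coding genes. In replicate 1 the count was 66 (84.6%), against 9.62% of all genes, and in replicate 2 it was also 66 (84.6%), against 9.62%. The lists of both replicates named 65 of the same genes. Replicate 1 alone added rpl-26, replicate 2 alone added rps-8, and 11 genes were in neither. Every gene with a thresholded summit had 1, and 3 divergent pairs shared theirs (rpl-24.1 with rps-10, rpl-36 with rps-14, rpl-39 with rps-30), so there were 64 distinct summits.

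These summits were also stronger than those at other genes. Ribosomal protein genes with a summit had a median signal of 300.1 in the thresholded list, 192.1 in replicate 1 and 129.9 in replicate 2. Other genes with a summit had medians of 97.12, 58.88 and 42.22 in the same lists. Here and below, other genes include neighbours that share a summit with a ribosomal protein gene, so the summits of the sets overlap. The ratio was 3.09 in the thresholded list, and the median rank was 226, against 907 for other genes. Of the 20 regions of highest signal 5 lay at a ribosomal protein gene, as did 13 of the top 50, 21 of the top 100, 32 of the top 200 and 46 of the top 500. The 64 regions were 2.93% of the thresholded regions and held 13.2% of their summed signal. Genes for mitochondrial ribosomal proteins, which form the separate ribosome of that organelle, had a summit in 28 of 70 cases (40%), with a median signal of 102.5.

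**Figure D1:**
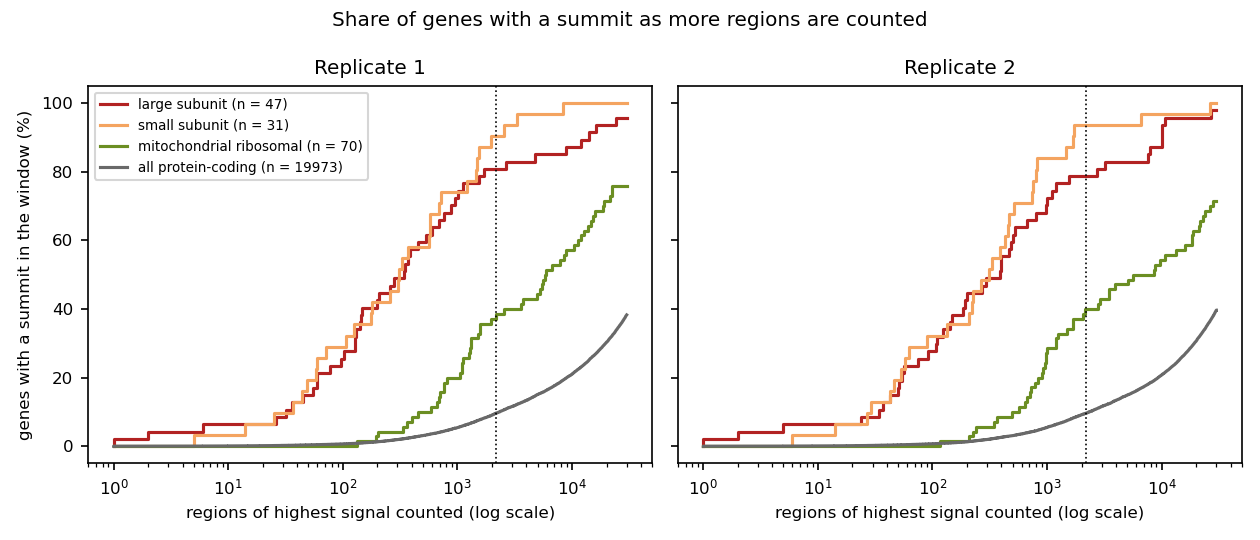
Share of genes with a summit in the promoter window (y axis, %) as more of a replicate's regions are counted from the strongest down (x axis, number of regions, log scale), for large subunit, small subunit, mitochondrial ribosomal and all protein-coding genes. At the dotted line, 2182 regions, the large subunit reached 80.9% in replicate 1 and 78.7% in replicate 2, the small subunit 90.3% and 93.5%, and all genes 9.62% in both.

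Large subunit genes had a summit in 38 of 47 cases (80.9%, interval 67.5 to 89.6%), with 38 in replicate 1 and 37 in replicate 2. Their signal ran from 56.86 to 6690 with a median of 362.3, and the medians in the replicates were 223.9 and 143.7. The large subunit held the strongest region of the whole list as well as genes with no listed summit in one replicate.

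The strongest was rpl-20, which encodes the large subunit protein eL20, with a thresholded signal of 6690 and a signal of 4092 in replicate 1 and 2620 in replicate 2. Its summit was 287 bp upstream of its own 5′ end and 175 bp upstream of that of its divergent neighbour Y17G9B.5. Next came rpl-3, whose protein uL3 lies near the peptidyl transferase centre, with 6665 (4001 and 2686). No other gene had this summit in its window. The fourth of the ribosomal protein genes, rpl-15 (eL15), had 5356 (3254 and 2127). These 3 large subunit genes stood well apart from the rest of their subunit in both replicates.

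The gene rpl-11.2 encodes uL5, which binds 5S ribosomal RNA as part of the central protuberance. It followed with a thresholded signal of 1377, and 813.3 and 562 in replicates 1 and 2. The genes rpl-29 (signal 1106; replicates 637.7 and 473.1) and rpl-35 (1104; 660 and 450.6) encode L29 and uL29, different proteins despite the names. Their regions were neighbours in rank in the thresholded list, at 34 and 35, and changed places between the replicates. Lower still were rpl-22 (eL22; 891.4, replicates 534.7 and 351.2) and rpl-24.1 (eL24, on the face towards the small subunit; 848.9, replicates 460.3 and 387.3).

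The weakest large subunit summits were those of rpl-13 (eL13; thresholded signal 84.53, replicates 52.4 and 33.15), rpl-32 (L32; 74.28, replicates 34.37 and 37.91) and rpl-26 (uL24; 56.86, replicates 37.51 and 18.13). They were at ranks 1068, 1255 and 1715 of 2182. In replicate 2 the region at rpl-26 was at rank 2725, below the 2182 that were compared. These 3 genes thus lay below the median signal of other genes with a summit, 97.12. So did rpl-18 (eL18; 93.94, replicates 58.97 and 35.34).

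Small subunit genes had a summit in 29 of 31 cases (93.5%, interval 79.3 to 98.2%), with 28 in replicate 1 (90.3%) and 29 in replicate 2. Their median signal was 237.1 (45.8 to 5413), with 143.1 in replicate 1 and 104.7 in replicate 2. The share with a summit was higher than in the large subunit in the thresholded list and in both replicates, and the intervals overlap. The median signal was lower than in the large subunit in all 3 lists. The gene counts behind these differences are small, and no test over genes was made.

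The strongest small subunit gene was rps-1 (eS1), with a thresholded signal of 5413, 3316 in replicate 1 and 2120 in replicate 2. Its summit was 265 bp upstream, and ifet-1 had the same summit in its window. Then came rps-20 (uS10) with 2336 (1420 and 918.2) and rps-23, whose protein uS12 is at the decoding centre, with 1342 (822.3 and 524.9). The gene rps-26 encodes eS26, at the channel where messenger RNA leaves, and had 1140 (636.2 and 506.7). The signal of rps-1 was well above that of rps-20, the next small subunit gene, in both replicates.

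Below these were rps-19 (eS19; 919, replicates 551.1 and 369.5), rps-10 (eS10; 848.9, the summit shared with rpl-24.1), rps-18 (uS13; 832.6, replicates 507.1 and 328.1) and rps-17 (eS17; 777.8, replicates 463.4 and 317.7). Human RPS19 is known for its mutation in Diamond-Blackfan anaemia. The weakest were rps-2 (uS5, at the channel where messenger RNA enters; 64.31, replicates 39.19 and 25.08), rps-25 (eS25; 51.49, replicates 30.4 and 28.14) and rps-8 (eS8; 45.8, replicates 21.29 and 24.7). The region at rps-8 was the last of the thresholded list, at rank 2182. It was at rank 3332 in replicate 1 and 1713 in replicate 2. The first of the ribosomal protein genes below the threshold was rpl-41.1, at rank 2847 of the list for both replicates together, with a signal of 37.2 there.

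Genes whose proteins work at the same place in the ribosome could lie far apart in signal. The places below were chosen after the values were seen. At the peptidyl transferase centre, rpl-3 was at rank 2, whereas rpl-10 (uL16) was at rank 773 with a thresholded signal of 110.6 (48.57 and 66.97 in the replicates) and rpl-2 (uL2) had no thresholded summit. Among genes for the proteins that bind 5S ribosomal RNA, rpl-11.2 was at rank 25, rpl-5 (uL18) was at rank 148 with 426.7 (253.3 and 171.5), and rpl-11.1, the paralog of rpl-11.2, had no thresholded summit. At rpl-10 the signal was higher in replicate 2, and at rpl-5 it was higher in replicate 1.

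Genes for proteins at the exit tunnel and its mouth also differed, and those named here are examples. The gene rpl-35 was at rank 35. In the middle were rpl-17 (uL22; 197, replicates 112 and 75.54), rpl-31 (eL31; 157.2, replicates 97.41 and 64.81) and rpl-39 (eL39; 117.3, replicates 71.15 and 45.45). The gene rpl-4 (uL4) had 103.1, with 79.19 in replicate 1 and 26.72 in replicate 2, the highest ratio between replicates among the genes with a summit (2.96). The gene rpl-26 was the weakest of the large subunit. Of the genes for uL23, also at the mouth, rpl-25.2 had 199.2 and rpl-25.1 had no thresholded summit.

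In the small subunit, the genes for proteins at the entry channel for messenger RNA were all below the small subunit median of 237.1, and those at the platform and the exit side ran from the highest value to a low one. At the entry channel, rps-9 (uS4) had a thresholded signal of 165.5 (82.95 and 84.92), rps-3 (uS3) had 119.3 (68.43 and 47.21), rps-30 (eS30) had 117.3 (71.15 and 45.45), and rps-2 had 64.31. On the platform and exit side, rps-1 had 5413, rps-26 had 1140, rps-28 (eS28) had 276.1 (152 and 123.8), rps-14 (uS11) had 187.5 (114.6 and 75.9) and rps-5 (uS7) had 83.02 (37.56 and 44.86). The ranges of the 2 sides overlapped, in the thresholded list and in both replicates.

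Further small subunit genes lay between these extremes. The gene rps-6, whose protein eS6 is the classical substrate of S6 kinase, had 112.9 (44.89 and 61.45) and was at rank 1224 in replicate 1 and 515 in replicate 2. In the head, rps-29 (uS14) had 687.3 (390.9 and 293.9) and rps-15 (uS19) had 349.8 (214.9 and 132.4). The gene rps-0 (uS2) had 343.1 (216.2 and 127.5). The genes rps-5, rps-6, rps-8, rps-9 and rps-11 (uS17; 38.68 and 47.83 in the replicates) had the higher signal in replicate 2, as did rpl-7, rpl-10 and rpl-32 in the large subunit. Every other gene with a summit had the higher signal in replicate 1.

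**Figure D2:**
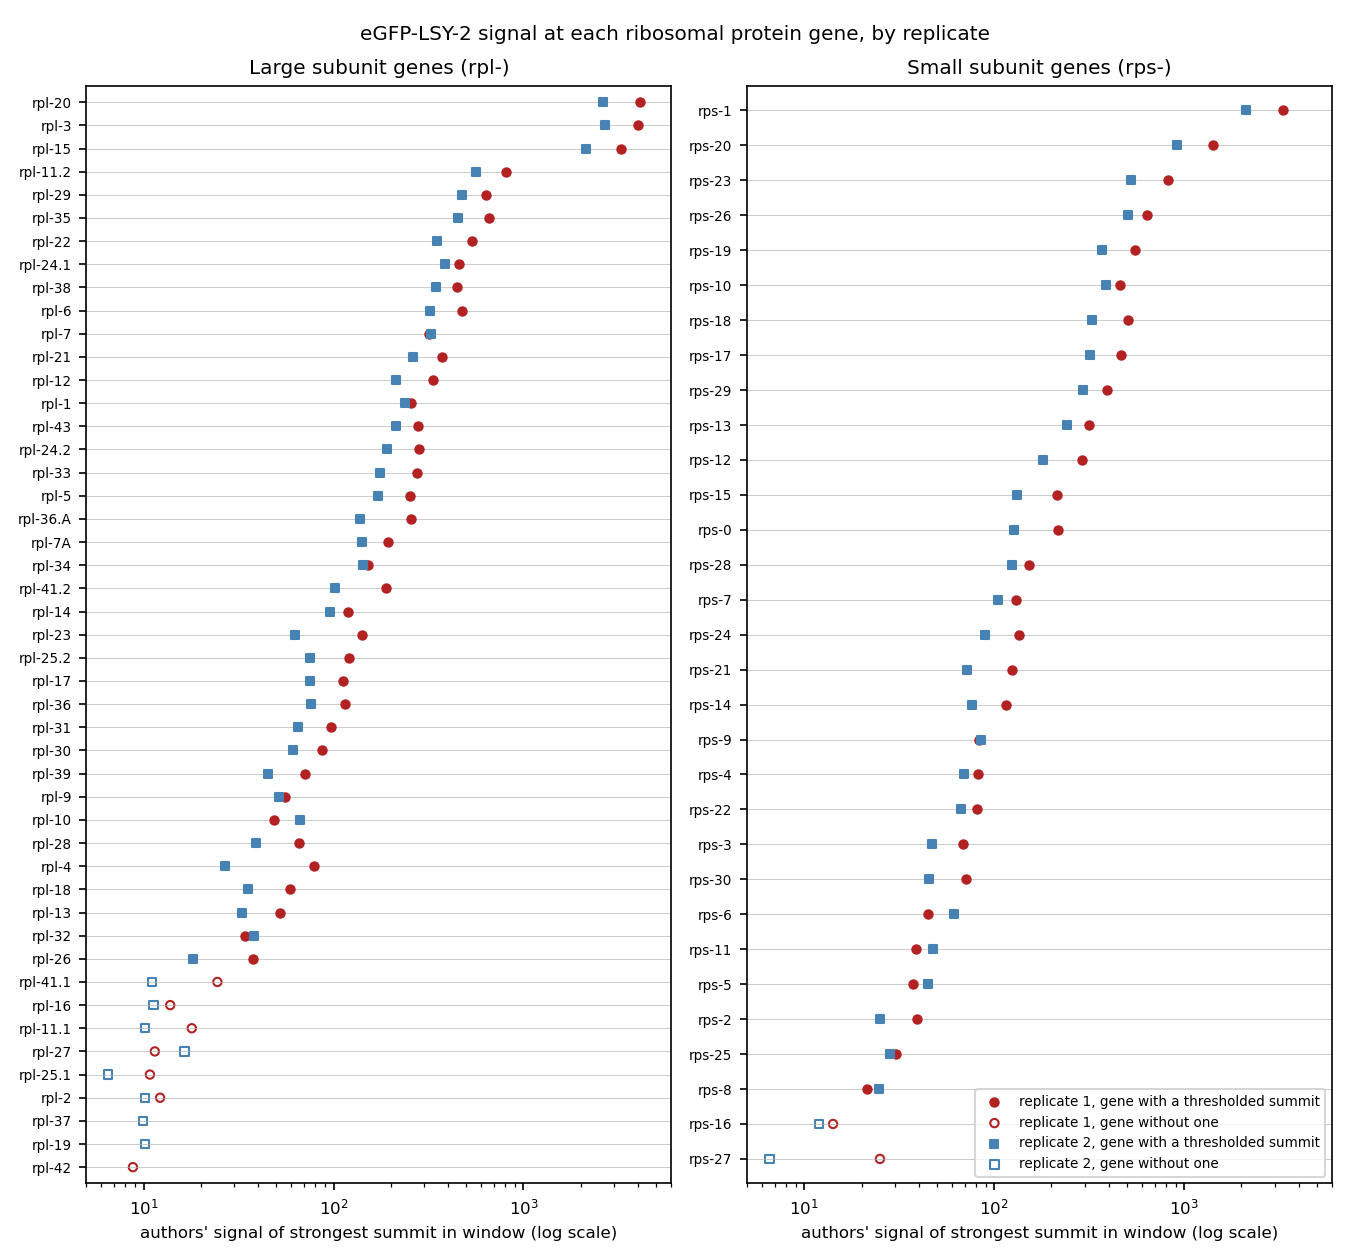
Signal of the strongest summit in the promoter window (x axis, authors' signal, log scale) for each ribosomal protein gene (y axis, ordered by thresholded signal, then by the rank of genes without a thresholded summit), with replicate 1 as circles and replicate 2 as squares. Filled symbols are genes with a thresholded summit and open symbols the 11 without. At the top, rpl-20 had 4092 and 2620 and rps-1 3316 and 2120.

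The replicates ordered the genes with a thresholded summit alike. Across the 64 distinct regions the log2 signal of the replicates had a Pearson correlation of 0.979 and a Spearman correlation of 0.976. Across 1349 regions at other genes, some of them shared with ribosomal protein genes, the values were 0.917 and 0.831. All of these regions come from the same 2 libraries, so the values are a description. They also had passed the limit on agreement in rank between the replicates, so high agreement is in part built in. Replicate 1 over replicate 2 had a median ratio of 1.47 (0.725 to 2.96, SD of the log2 ratio 0.364), against 1.42 (SD 0.507) at other genes, on scales that were not matched. The summits of the replicates lay a median of 7.5 bp apart at ribosomal protein genes, within 50 bp for 62 of 64, against 18 bp at other genes. The strongest summit was taken in each replicate separately, so a pair was not always the same region. The largest distance was 79 bp at ribosomal protein genes and 994 bp at other genes. Regions at other genes were also weaker, and sets matched in signal were not compared.

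The genes whose percentile among all listed regions (the highest signal being at percentile 100) differed most between replicates were 4 without a thresholded summit. The largest difference was at rps-27 (eS27), at percentile 91.5 in replicate 1 and 11.8 in replicate 2, with ranks 2543 and 26457. It was followed by rpl-25.1 (46.5 and 10.5), rpl-27 (53.4 and 89.2) and rpl-11.1 (84.3 and 66.6). These are regions of low signal, at most 25.01 in replicate 1.

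**Figure D3:**
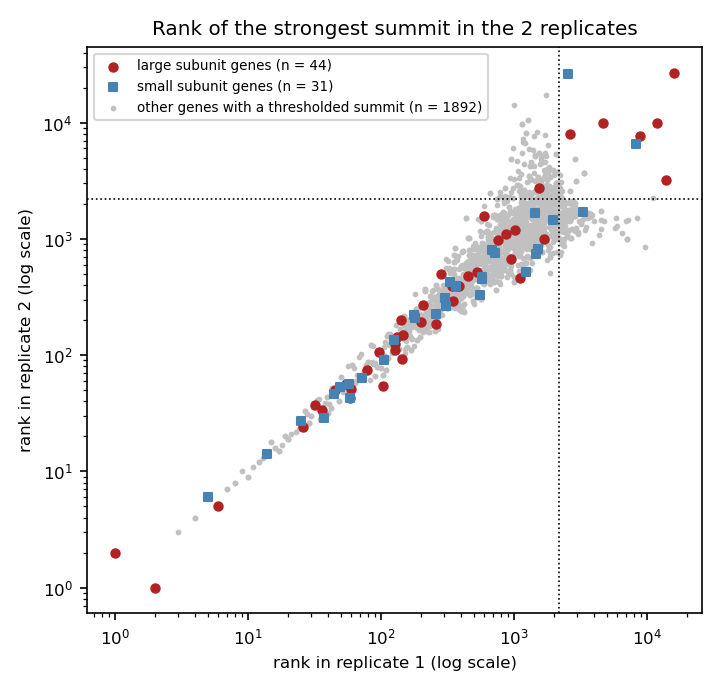
Rank of the strongest summit in each gene's window in replicate 1 (x axis) and replicate 2 (y axis), both on log scales with the strongest at the lower left, for large subunit genes (circles), small subunit genes (squares) and other genes with a thresholded summit (grey). The dotted lines are at rank 2182, and rps-27, at 2543 and 26457, is the square farthest from the diagonal. Genes listed in only one replicate are not drawn.

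Summits sat at a restricted distance. At ribosomal protein genes the median was 289 bp upstream of the annotated 5′ end, with quartiles of 250 and 360 bp, and it was 287 bp in each replicate. All 67 summits were upstream, from 26 bp at rpl-12 (uL11, at the base of the stalk that receives translation factors) to 748 bp at rpl-43 (eL43). The band from 200 to 400 bp upstream held 51 of the 67 (76.1%). This band was not in the plan and encloses both quartiles at ribosomal protein genes, so a high share there is in part built in. The band held 28.6% of the summits at other genes, whose median was 220 bp with quartiles of 126 and 396 bp. It held 7 of 28 (25%) at mitochondrial ribosomal protein genes, whose median was 168.5 bp. The subunits were alike in this, with a median of 292 bp for the large and 285 bp for the small.

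**Figure D4:**
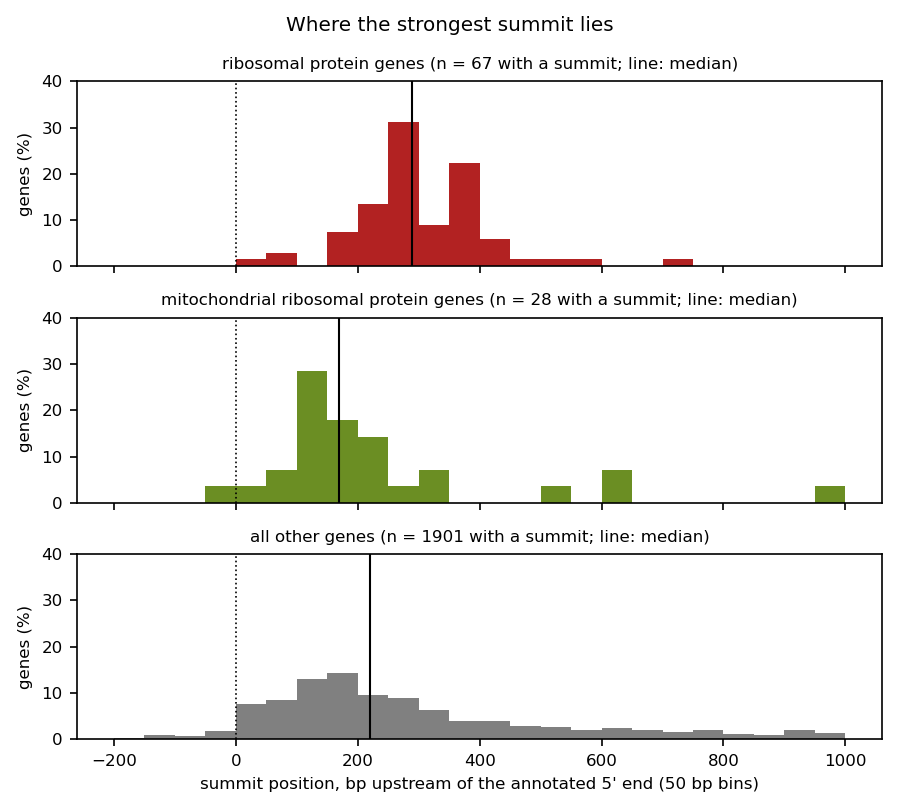
Position of the strongest thresholded summit relative to the annotated 5′ end (x axis, bp upstream in bins of 50 bp) as a share of the genes with a summit (y axis, %), for ribosomal protein genes, mitochondrial ribosomal protein genes and all other genes. The dotted line is the 5′ end and the solid line the median, at 289, 168.5 and 220 bp.

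Many ribosomal protein genes face a neighbour. A protein-coding gene on the opposite strand had its 5′ end within 1000 bp upstream of 47 of the 78 (60.3%), against 17.2% of all protein-coding genes and 49.2% of all genes with a summit. The summit was also in the window of another gene for 46 of the 67 (68.7%), against 58.2% for all genes with a summit. For 29 of the 67 (43.3%) the other gene's 5′ end was the nearer, against 30.8%. Among these were rpl-20, rps-23 and rps-20, so distance alone does not tell which gene a summit belongs to. At rps-26 the summit was 388 bp upstream and 69 bp upstream of tmem-107. When each summit was given to its nearest 5′ end within 5 kb instead, 42 ribosomal protein genes had one, against 9.48% of all genes under that rule. The summit at rpl-9 (uL6) was also that of lpd-7, which encodes the homolog of the ribosome assembly factor Pescadillo.

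The regions had a median width of 332 bp, against 364 bp for other regions at promoters. Most of the weaker regions at ribosomal protein genes were exactly 364 bp wide, so these medians say little about breadth. The strongest, at rpl-20, was 521 bp wide. Only 3 of the 64 summits (4.69%) lay inside a protein-coding gene, against 11.1% of those other regions. Small nucleolar RNA genes, whose products guide the modification of ribosomal RNA, lay inside 13 of the 78 genes (16.7%), against 0.961% of all protein-coding genes. Of these 13 host genes 12 had a summit, a share close to the 67 of 78 of all ribosomal protein genes, and 54 of all 192 host genes had one. The host gene rpl-6 (eL6) held 3 of the 19 small nucleolar RNA genes, and had a thresholded signal of 797.2, with 473.1 and 320.7 in the replicates.

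Paralogs differed in binding. Where symbols differ only in the number after a point, 4 pairs exist, and in 3 of them 1 gene had a thresholded summit and the other had none. The genes rpl-11.1 and rpl-11.2 encode versions of uL5 with 179 identical residues of 196 (91.3%). The gene rpl-11.2 had 813.3 and 562 in the replicates, against 17.94 and 10.19 at rpl-11.1. The difference between these paralogs was larger than the difference between replicates.

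The same held for rpl-25.2, which had a thresholded signal of 199.2, with 121.2 and 75.08 in the replicates, against 10.8 and 6.51 for its paralog rpl-25.1. The 2 proteins were 70.1% identical. The pair rpl-41.1 and rpl-41.2 encode the same short protein of 22 residues (100% identity). The gene rpl-41.2 had 292.9, with 189.8 and 102.2 in the replicates, against 24.47 and 11.11 at rpl-41.1. The thresholded summit closest to rpl-41.1 was that of rpl-41.2, 844 bp downstream of the 5′ end of rpl-41.1.

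The fourth pair, rpl-24.1 and rpl-24.2, is a pair in symbol only, with 27.2% identity. RefSeq describes the product of rpl-24.2 as the ribosome biogenesis protein RLP24, an assembly factor and not a protein of the mature ribosome. Both had a summit: rpl-24.1 had 848.9 (460.3 and 387.3) and rpl-24.2 had 465.8 (280.3 and 191.5). A further gene that the symbols bring in, rpl-42, has a product that RefSeq describes by a NAM-associated domain, and it had no summit. Without rpl-24.2 and rpl-42, a choice made after the data were seen, 66 of 76 genes had a summit (86.8%), and 37 of 45 in the large subunit (82.2%).

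**Figure D5:**
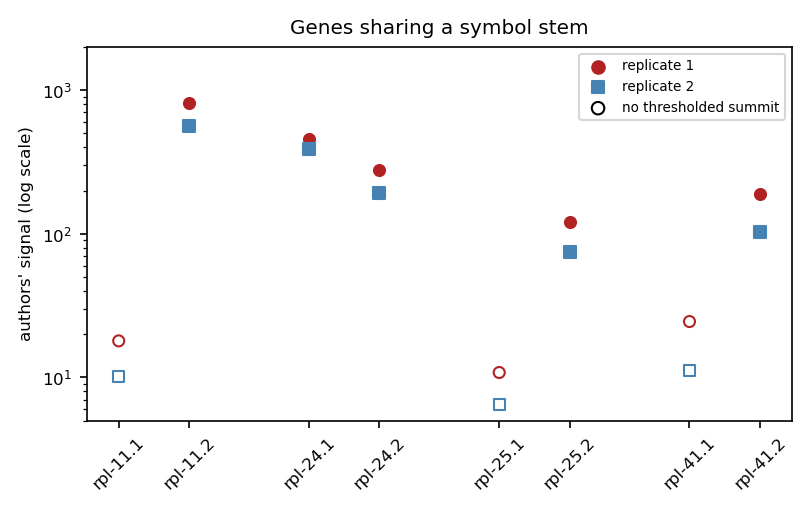
Signal of the strongest summit in the window (y axis, authors' signal, log scale) for the 4 pairs of genes that share a symbol stem, with replicate 1 as circles and replicate 2 as squares; open symbols are genes without a thresholded summit. In each pair other than rpl-24.1 and rpl-24.2 the gene numbered 2 has a summit in both replicates, as with 813.3 and 562 at rpl-11.2, and its paralog lies far below, with 17.94 and 10.19 at rpl-11.1.

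Of the 11 genes without a summit, 9 were of the large subunit: rpl-2, rpl-11.1, rpl-16, rpl-19, rpl-25.1, rpl-27, rpl-37, rpl-41.1 and rpl-42. The other 2 were rps-16 (uS9) and rps-27. By chromosome, all 17 genes on IV had a summit, as did 16 of 18 on III, 9 of 10 on II, 20 of 23 on I, 4 of 8 on V and 1 of 2 on X. Over all protein-coding genes the counts were 309 of 3281 on IV, 434 of 2640 on III, 345 of 3449 on II, 450 of 2878 on I, 280 of 4994 on V and 150 of 2731 on X, so the share was lowest on V and X there too. In the list of both replicates together, rps-16, rps-27, rpl-16 and rpl-11.1 were at ranks 5675, 6299, 6891 and 9482. The genes rpl-27, rpl-25.1, rpl-2 and rpl-37 were at ranks 11104, 12778, 16754 and 17835, and rpl-19 and rpl-42 had no listed summit there. All of these ranks are far below the 2182 regions of the thresholded list.

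Several of the 11 lie directly behind another gene. A gene on the same strand ended within 500 bp upstream of 5 of them (45.5%), against 3 of the 67 with a summit (4.48%) and 17.7% of all protein-coding genes. For 4 of the 5 that upstream gene had a thresholded summit of its own. It was fib-1, the methyltransferase fibrillarin that modifies ribosomal RNA, for rps-16 (109 bp between the genes, signal of fib-1 336.5). It was lias-1 for rpl-16 (105 bp, 329.5), glit-1 for rpl-25.1 (97 bp, 395.6) and C53H9.2 for rpl-27 (119 bp, 64.92). Over all protein-coding genes 9.85% had a summit, and the share among genes that lie directly upstream of another was not counted. Whether the pairs are transcribed together was not tested. With the window extended to 2000 bp upstream, rps-16 and rpl-16 gained the summits of fib-1 and lias-1.

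At rpl-19 (eL19) the annotation decides the count. The gene record starts 364 bp behind C09D4.6, and a summit of rank 170 lay 352 bp downstream of that start, inside the gene. A second protein-coding transcript of rpl-19 starts 612 bp further in, and the same summit was 260 bp upstream of this start. The region had a thresholded signal of 385.2, with 215.9 and 165.5 in the replicates. Counted from any protein-coding transcript, 68 ribosomal protein genes had a summit, against 10.4% of all genes.

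The motifs below were chosen on these same windows, so their frequency at ribosomal protein genes is a description. Windows of 101 bp around the 64 summits were compared with 2118 other thresholded summits and with 17994 windows, centred 289 bp upstream, of other genes without a summit. Both strands were searched. ACCGTA was in 29 of the 64 windows (45.3%), against 9.82% of other summits and 2.67% of the windows without a summit. GAGACC was also in 29 (45.3%), against 8.36% and 2.67%. ATACTCAG was in 12 (18.8%), against 0.567% and 0.15%. A longer form of the second, GCGAGACC, which contains GAGACC, was in 21 (32.8%), against 3.12% and 0.467%. AAAGGCGC was in 13 (20.3%), against 1.98% and 0.678%. At least 1 of these motifs or of AACGAGTG, described below, was in 53 windows (82.8%), against 18% and 5.79%.

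At ribosomal protein genes the motifs went with different strengths of binding. The 29 windows with ACCGTA had a median rank of 74, with 26 among the 500 strongest regions, and the 35 without it had a median rank of 383. The 29 with GAGACC had a median rank of 383, against 129 without. The 12 with ATACTCAG had a median rank of 600.5, against 157 without. Other strong summits also carry ACCGTA more often: it was in 29.5% of the 454 other summits among the 500 strongest. GAGACC was in 12.6% of these and ATACTCAG in 0.441%. Among the 1664 other summits below rank 500 the shares were 4.45% for ACCGTA, 7.21% for GAGACC and 0.601% for ATACTCAG. At other summits GAGACC was thus more frequent among the stronger ones, the reverse of the order at ribosomal protein genes. Both subunits held the motifs. ACCGTA was in 52.6% of large and 34.5% of small subunit windows, and GAGACC in 47.4% and 44.8%.

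AACGAGTG and ACCGTA stood in a fixed arrangement. AACGAGTG was in 13 windows (20.3%), against 1.13% of other summits and 0.172% of windows without a summit, and all 13 were among the 500 strongest regions. In 12 of the 13 the window also held ACCGTA, and in all 12 exactly 2 bases separated them. At other summits 15 windows held both and 14 had this spacing. The composite occurred 32 times in the nuclear genome, and 26 of these sites (81.2%) lay within 50 bp of a thresholded summit, 25 of them among the 500 strongest. Of the 26 sites, 12 were in the promoter window of a ribosomal protein gene. The motifs were chosen at those summits, so the 12 count towards the share by construction. A ribosomal protein gene's promoter window held 13 of the 32 sites. One of them, at rps-18, was 91 bp from the summit. A further site was inside the rpl-19 gene record, 5 bp from the summit described above. Neither AACGAGTG nor ATACTCAG was found in the whole promoter window of any of the 11 genes without a summit, against 16 and 14 of the 67 with one. The other motifs were found there: GAGACC was in the whole window of 5 of the 11 (45.5%), against 38 of the 67 (56.7%). ACCGTA was in 1 of the 11, against 39 of the 67, and AAAGGCGC in 1, against 18. The motifs were chosen at the summits of the 67. Over other genes, AACGAGTG was in 4.89% of whole windows with a summit and 2.37% without, and ATACTCAG in 2.63% and 1.73%. At such shares their absence from 11 genes does not set those genes apart. GAGACC was in 35.9% and 24.9% of these windows, ACCGTA in 36.8% and 27.6%, and AAAGGCGC in 11% and 5.29%.

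GAGACC was mostly in 1 orientation relative to the gene. Leaving out the summits of the 3 shared pairs, 27 windows at ribosomal protein genes held it, and in 24 (88.9%) GGTCTC was on the gene's strand. Where no gene of the opposite strand had the summit in its window this was so in 16 of 17. At other promoter summits, read on the strand of the nearest gene, it was so in 85 of 134 (63.4%), with 48 on the opposite strand alone and 1 on both. A ribosomal protein gene was not always the gene nearest to its summit, so the strand was chosen differently in the sets. Other promoter summits were not split by the strands of the genes that share them. ACCGTA was on the gene's strand alone in 19 of 28 windows (67.9%) and on the opposite strand alone in the other 9. Where no gene of the opposite strand had the summit in its window it was so in 8 of 9. At other promoter summits 92 of 178 windows (51.7%) had it on the gene's strand alone, 80 on the opposite strand alone and 6 on both.

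Other short motifs were in few of the windows. Those at a lower share than at other summits were CTGCGTCT (4.69%, against 10.7%), GAGAGAG (4.69%, against 12.8%), the TATA box TATAAA (1.56%, against 4.49%), TTTTTTT (3.12%, against 10.3%) and GGGCGG (4.69%, against 5.76%). ACTACA (4.69%, against 3.21%), the E-box CACGTG (3.12%, against 2.79%) and the splice acceptor TTTCAG (6.25%, against 5.95%) were at a higher share. Each of these shares at ribosomal protein genes rests on 4 windows or fewer. The GC content had a median of 50.5% in the windows, against 47.5% at other summits and 33.7% in windows without a summit.

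The ribosome has further proteins whose genes carry other symbols. Of 6 such genes that were looked up, 3 had a summit. These 6 were a chosen list and need not be all such genes, so the share is not that of a complete set. The gene ubq-2, which encodes ubiquitin fused to the large subunit protein L40, had a thresholded signal of 2058 (1250 and 817.6). The gene ubl-1, which encodes a ubiquitin-like protein fused to a small subunit protein, had 500.2 (302.5 and 196.3). The scaffold protein gene rack-1 had 69.14 (43.49 and 22.3). The stalk protein genes rla-0, rla-1 and rla-2 had no thresholded summit, and rla-1 had a region at rank 1982 in replicate 2 alone. A gene on the same strand, Y37E3.8, ended 105 bp upstream of rla-1 and had a thresholded summit (rank 197, signal 335.5). Whether these neighbours are transcribed together was not tested. The gene rps-30, whose RefSeq product is also described by a ubiquitin-like domain, had 117.3, so the genes with such a part ran from high to low.

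Among 22 symbols of genes linked to ribosome assembly, 19 were found in the annotation and 12 of these had a summit (63.2%), with a median signal of 124.8. The strongest were nog-1, which encodes a nucleolar GTPase (586.9), larp-1 (373.2), fib-1 (336.5) and rbd-1 (225.4). The gene larp-1 encodes an RNA-binding protein that is known in mammals for regulating the messenger RNAs of ribosomal proteins and is not an assembly factor. Without a summit were nst-1, pro-2, pro-3, ncl-1, rrp-1, wdr-12 and toe-1. Both the share with a summit and the median signal were higher at the ribosomal protein genes, at 85.9% and 300.1, against 63.2% and 124.8 at these genes.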

How the data were processed

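Deposited eGFP-LSY-2 ChIP-seq regions were used for 1 group of 2 biological replicates, numbered per the labels. Nothing in the labels says how the replicates were grown. Regions were called by the authors on ce11 alignments of each replicate, and of both combined, with a control alignment for comparison, per the files' own listings. Aligner, caller and versions: not given in the sources used here. Within a list, deposited signal was used for ranks and levels. The deposited −log10 q-value was not used for ranking.

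The ce11 lists were used, with genes of Ensembl release 115 on WBcel235, product names and sequence from RefSeq, and the 5′ end of the gene record. Mitochondrially encoded genes were left out. The strongest summit in a window was taken, and neighbouring genes can share one. All 78 genes had a RefSeq product. Protein identity came from global alignment of proteins translated from the Ensembl coding sequences, in place of the RefSeq proteins first planned (gap opening 11, extension 1, BLOSUM matrix), as identical residues over the longer protein. Motifs searched were 8 from a list, the 8-mers held by most windows, and the shorter ACCGTA and GAGACC. More 8-mers were used than planned, and the shorter motifs were chosen on these windows outside the plan. Shares have Wilson intervals at 95%.

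The genes and lists were chosen with earlier results of these data known, so no test over genes was made. Named in full are the 8 strongest and 3 weakest genes of each subunit, all without a summit, all paralogs, the 4 with the largest difference in percentile between replicates, the other ribosomal protein genes and the 4 strongest assembly genes. Other genes are examples chosen after their values were seen. Planted summits were recovered in simulated data. Python 3.11.15 with numpy 2.4.6, pandas 2.3.3, statsmodels 0.14.6, Biopython 1.88 and matplotlib 3.10.9 was used.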

Additional observations from a re-analysis of the deposited data

How the results depend on the processing

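Of the alternatives, 8 were planned, and leaving out rpl-24.2 and rpl-42 was added after the data were seen. The main values are 67 genes with a summit, 80.9% of large and 93.5% of small subunit genes, median signals of 362.3 and 237.1, 9.85% of all genes, a ratio of 3.09 to other genes and a distance of 289 bp. With 500 bp upstream to 100 bp downstream the shares were 78.7% and 87.1% (all genes 8.11%), the ratio 2.85 and the distance 286 bp. With 2000 bp upstream to 200 bp downstream they were 83% and 96.8% (all genes 12.4%), 3.39 and 293 bp. With the nearest 5′ end within 5 kb, 42 genes had a summit, with shares of 48.9% and 61.3% (all genes 9.48%), median signals of 465.8 and 165.5, a ratio of 2.7 and 263 bp. By construction this gives each summit to 1 gene. With the 5′ end of any protein-coding transcript the large subunit share was 83% (all genes 10.4%), the ratio 3.28 and the distance 288 bp. With the upper 50% of regions the shares were 76.6% and 80.6% (all genes 5.9%), the small subunit median signal 343.1, the ratio 2.25 and the distance 287 bp. With each replicate left out in turn, the large subunit share was 78.7 to 80.9%, the small 90.3 to 93.5% (all genes 9.62% in both), the median signals 143.7 to 223.9 and 104.7 to 143.1, the ratio 3.08 to 3.26 and the distance 287 bp in both. Without rpl-24.2 and rpl-42 the distance was 291 bp. The cause of these changes was otherwise not tested. In each of these settings the small subunit had the higher share and the large subunit the higher median signal.

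No paired analysis was possible because there is 1 group. Depth is unknown, so counting error in the signal cannot be given, and replicate signals were not scaled to each other.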
